A study of Mus musculus with 6 samples.

Results

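Nuclear receptors and the coregulators that work with them were followed in the livers of mice given a compound named CBZ. The set comprised 37 genes, 31 receptors and 6 coregulators, and its members were all the probes whose gene name in the array files was one of the 37. There were 66 such probes of 55681 on the array, and every gene had at least 1. Of these, 51 probes of 31 genes were bright enough to be compared, against 22352 probes of 17047 genes over the whole array. The CBZ mice received 250 mg/kg CBZ by mouth, and the controls received the solvent dimethyl sulfoxide (DMSO) by mouth. Both groups held 3 C57BL6/J mice, an inbred laboratory strain, and all livers were taken 2 h after dosing. No allele, transgene or other treatment is named for either group, age and sex are not given in the sources used here, and what CBZ stands for is not spelled out in the labels. Total RNA of each whole liver was hybridised to 1 array in 1 colour (Cy3).

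Nuclear receptors are transcription factors that bind DNA directly, and many of them are switched on by small lipophilic molecules such as steroids, bile acids, fatty acids or drugs. Many of those studied here bind DNA as a pair with a retinoid X receptor, recruit coactivators such as the Ncoa proteins and the Mediator subunit Med1 when a ligand is bound, and hold corepressors such as Ncor1 when it is not. In liver they set the output of drug metabolism, bile acid, cholesterol, fatty acid and glucose pathways, and their activity can change through ligand binding or movement into the nucleus with no change in their own mRNA. The arrays measured that mRNA only.

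Signals are given as log2 of the processed intensity over the array's own 75th percentile, so that 0 is the 75th percentile of the array. A log2 fold change is the mean of the CBZ mice minus the mean of the DMSO mice, with its standard error (SE) or its 95% interval from limma. Spots well above background made up 42.6% to 45.8% of each array, none was saturated, and the pairwise correlation of arrays over probes was 0.988 to 0.993. All 6 arrays lay on 1 slide, where CBZ replicates 2 and 3 lay in row 2, and CBZ replicate 1 and the DMSO mice in row 1. Hepatocyte markers, which check the tissue label, averaged 8.86 to 9.08 in CBZ livers and 8.88 to 8.97 in DMSO livers, and all 10 were measured. The labels do not say whether mice were dosed or processed separately, so p-values measure the spread between these 6 arrays. With so few arrays, their number sets the precision.

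The probes on which the results turn were 60 bases long. The first 30 bases of each are shown, because several genes were read by more than 1 probe and the probes of 1 gene did not always give the same value. The 2 probes of Nr1i3 lie on mouse build mm9 at chr1:173148765-173148824 and chr1:173147776-173147835, both on the plus strand.
Nr1i3, brighter probe: tataaacaatgcatactcctatgaacttca
Nr1i3, dimmer probe: aagagaagagatagatcagctacaagagga
The 3 probes of Ppara lie on the plus strand at chr15:85632110-85632169, chr15:85632534-85632593 and chr15:85637193-85637252, from the brightest to the dimmest.
Ppara, brightest probe: ctttgaaaacctacaagtcaaggtgtggcc
Ppara, second probe: aaatgctcctctaggcccctcctttggcag
Ppara, dimmest probe: cctgtaagctgatgaatgtaaagagttaat
The 3 probes of Esr1 that were compared lie on the minus strand at chr10:5343056-5343115, chr10:5489352-5489411 and chr10:5345046-5345105, so that the second starts 146.3 kb from the first.
Esr1, brightest probe: ttttttgtagacgtttcaaactaccgtgtc
Esr1, second probe: ttattgaccaacctagcagatagggagctg
Esr1, dimmest probe: tccccgaaaggttctgagaatccctgcaac
The 2 probes of Rxrg lie on the plus strand at chr1:169569496-169569555 and chr1:169569624-169569683, and the only probe of Nr4a1 lies on the plus strand at chr15:101105071-101105130.
Rxrg, brighter probe: ctggcctcccttcctgtccccaaaatgtga
Rxrg, dimmer probe: aggtctttccggcagttcttgggaagagtg
Nr4a1: ctcttccgctctccttccatgtgtacataa
The array design names the gene and transcript of each probe. No mm9 gene models were used here, so exons and untranslated regions are not assigned.

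The comparison of CBZ with DMSO asked whether the mRNA of any of these regulators differed 2 h after dosing. No receptor or coregulator probe passed limma's test after Benjamini-Hochberg adjustment over all probes, 0 of 51, while 0.0626% of all probes compared passed. Those were 12 higher (0.0537%) and 2 lower (0.00895%), or 60 higher and 71 lower with arrays scaled to their median. At an unadjusted p under 0.05 in limma, 4 member probes were higher and 4 lower, which is 15.7% of the 51 against 9.38% of all probes (5.01% higher and 4.37% lower). The groups did not overlap for 15 of the 51 probes (29.4%), 9 higher and 6 lower, against 13.2% of all probes (6.25% higher and 7% lower). Taken by gene at the brightest probe, the groups did not overlap for 10 of 31 genes (32.3%) against 12.9% of all genes, and 4 of 31 reached an unadjusted p under 0.05 in limma (12.9%) against 8.96%. Several of these probes read the same gene, so they are not separate observations. In whole liver, fewer cells of a type and less RNA per cell cannot be told apart. The median log2 fold change of the 51 probes was -0.071, against -0.006 over all probes, with a lowest value of -0.49 (Ppara) and a highest of 0.92 (Nr4a1). Only 3 of the 51 differed by more than 1.5-fold (Nr4a1, Rxrg and Esr1), 5.88% against 3.57% of all probes. The 95% interval lay inside a 2-fold change in either direction for 47 of the 51 probes, so for these the data bound the difference at less than that.

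**Figure D1:**
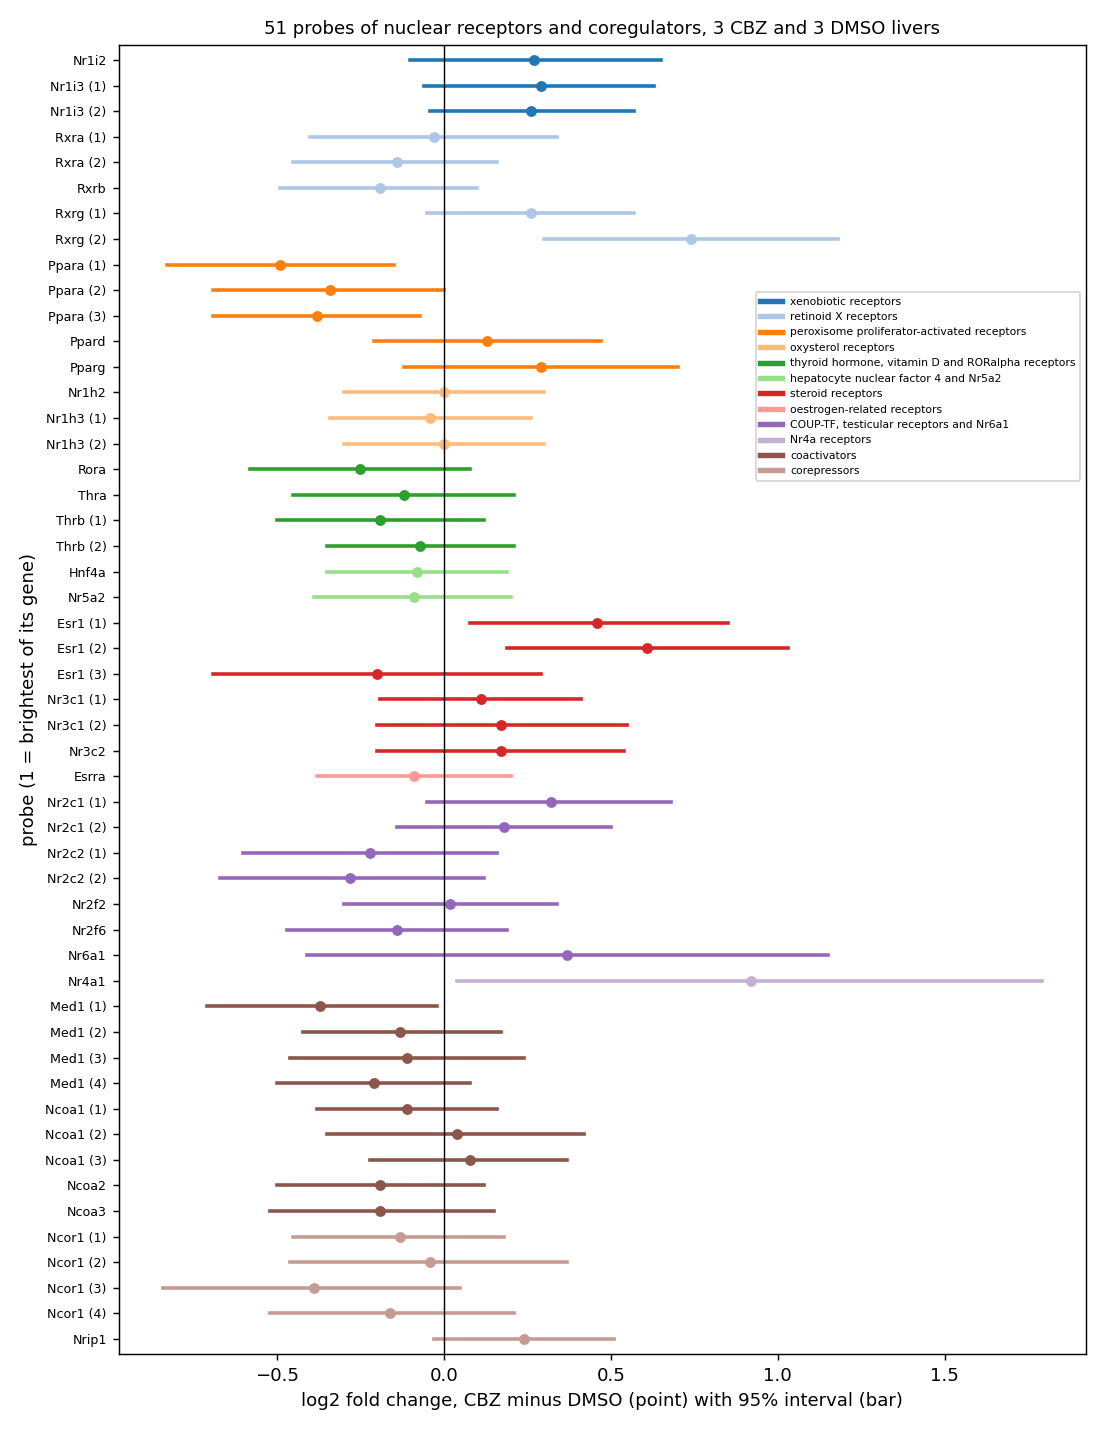
Log2 fold change of CBZ minus DMSO (x axis) for each of the 51 probes compared (y axis, 1 marks the brightest probe of a gene), with the 95% interval from limma as a bar and colour for the class of regulator, n = 3 mice per group. The interval excludes 0 for 8 probes, none of which passed the adjusted test, and the longest bar is that of Nr4a1, from 0.04 to 1.79.

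The xenobiotic receptors were slightly higher in CBZ at every probe and none passed the test. Nr1i3 encodes CAR, the constitutive androstane receptor, which resides in the cytoplasm of hepatocytes until drugs such as phenobarbital release it to the nucleus. Its brighter probe read 5.10, 5.55 and 5.28 in the CBZ mice, against 5.08, 4.90 and 5.09 in the DMSO mice. The groups did not overlap, but CBZ replicate 1 lay only just above the highest DMSO mouse. The log2 fold change was 0.29 ± 0.15 SE (95% interval -0.06 to 0.63, limma's adjusted p = 0.64). The dimmer probe read 3.64, 3.95 and 3.73 in CBZ livers and 3.54, 3.47 and 3.53 in DMSO livers, again without overlap. Its log2 fold change was 0.26 (limma's adjusted p = 0.62). Nr1i2, which encodes PXR, the pregnane X receptor that binds many drugs, read 4.90, 4.87 and 4.88 in CBZ livers and 4.77, 4.27 and 4.80 in DMSO livers. The 3 CBZ mice were nearly alike, and the low value of DMSO replicate 2 made most of the difference in means. The log2 fold change was 0.27 (95% interval -0.10 to 0.65, limma's adjusted p = 0.73). With the slide row as a covariate, which sets CBZ replicate 1 against the 3 DMSO mice in the same row, the log2 fold change was 0.08 and 0.13 for the 2 Nr1i3 probes and 0.29 for Nr1i2.

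Among the retinoid X receptors, the shared partners of CAR, PXR, the PPARs and the thyroid hormone receptors, the hepatic forms differed little. Rxra, known as the main form in liver, read 1.20, 1.45 and 1.35 at its brighter probe in CBZ mice, against 1.38, 1.61 and 1.10 in DMSO mice. The groups overlapped throughout, and the log2 fold change was -0.03 (95% interval -0.40 to 0.34). Its other probe was at -0.14. The 2 Rxra probes averaged 1.35 and 0.92 over the 6 arrays, against 4.94 for Rxrb and 1.39 for the brighter Rxrg probe. Probes of 1 gene can differ as much in brightness, as the Nr3c1 probes at 4.74 and 0.29 show. So these signals cannot rank the mRNA levels of the Rxr genes. Rxrb, a widely expressed form, was at -0.19 (95% interval -0.49 to 0.10), with all 3 CBZ mice just below the DMSO mice. Rxrg, best known from muscle and brain, had the smallest p of all 51 probes at its dimmer probe. That probe read 1.13, 1.35 and 1.53 in CBZ livers, against 0.85, 0.21 and 0.73 in DMSO livers. Every CBZ mouse lay above every DMSO mouse, and DMSO replicate 2 was the lowest of all. The probe was 1.67-fold higher in CBZ (0.74 ± 0.19 SE, limma's adjusted p = 0.26). The adjusted p ran from 0.048 with an intensity trend and robust variance, the only alternative under which it passed, to 0.93 with no filter. The brighter Rxrg probe, 128 bases away on the genome, read 1.37, 1.52 and 1.69 in CBZ livers and 1.35, 1.23 and 1.20 in DMSO livers. It also separated the groups, though by a smaller 1.20-fold (0.26, limma's adjusted p = 0.63). Within row 1 of the slide, where CBZ replicate 1 alone stood against the DMSO mice, the 2 probes were at 0.54 and 0.10.

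Ppara was lower in CBZ at each of its 3 probes, and no probe passed the test. Ppara encodes PPAR alpha, the fatty acid receptor that drives fatty acid oxidation and ketogenesis in fasting liver. Its brightest probe read 5.70, 6.0 and 5.67 in CBZ livers, against 6.19, 6.45 and 6.19 in DMSO livers. All CBZ mice lay below all DMSO mice, with CBZ replicate 2 the nearest to them. The log2 fold change was -0.49 ± 0.15 SE, which is 1.41-fold lower (limma's adjusted p = 0.33). The dimmest probe read 3.48, 3.76 and 3.43 in CBZ livers and 3.92, 3.98 and 3.93 in DMSO livers, without overlap, at -0.38 (limma's adjusted p = 0.41). The second probe read 4.02, 4.42 and 4.07 in CBZ livers and 4.49, 4.41 and 4.64 in DMSO livers. CBZ replicate 2 there lay just above DMSO replicate 2, and the log2 fold change was -0.34 (limma's adjusted p = 0.53). The 3 probes share the same RNA samples and are not independent tests. Under the 15 alternative settings the brightest probe ranged from -0.60 to -0.41, the dimmest from -0.48 to -0.32 and the second from -0.50 to -0.27, none past the threshold, with limma's adjusted p between 0.065 and 1. The other PPAR genes lay on the opposite side of 0. Ppard, a broadly expressed fatty acid receptor, was at 0.13 (95% interval -0.21 to 0.47), and Pparg, the regulator of fat storage that is low in healthy liver, was at 0.29 (95% interval -0.12 to 0.70). Both overlapped between groups.

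**Figure D2:**
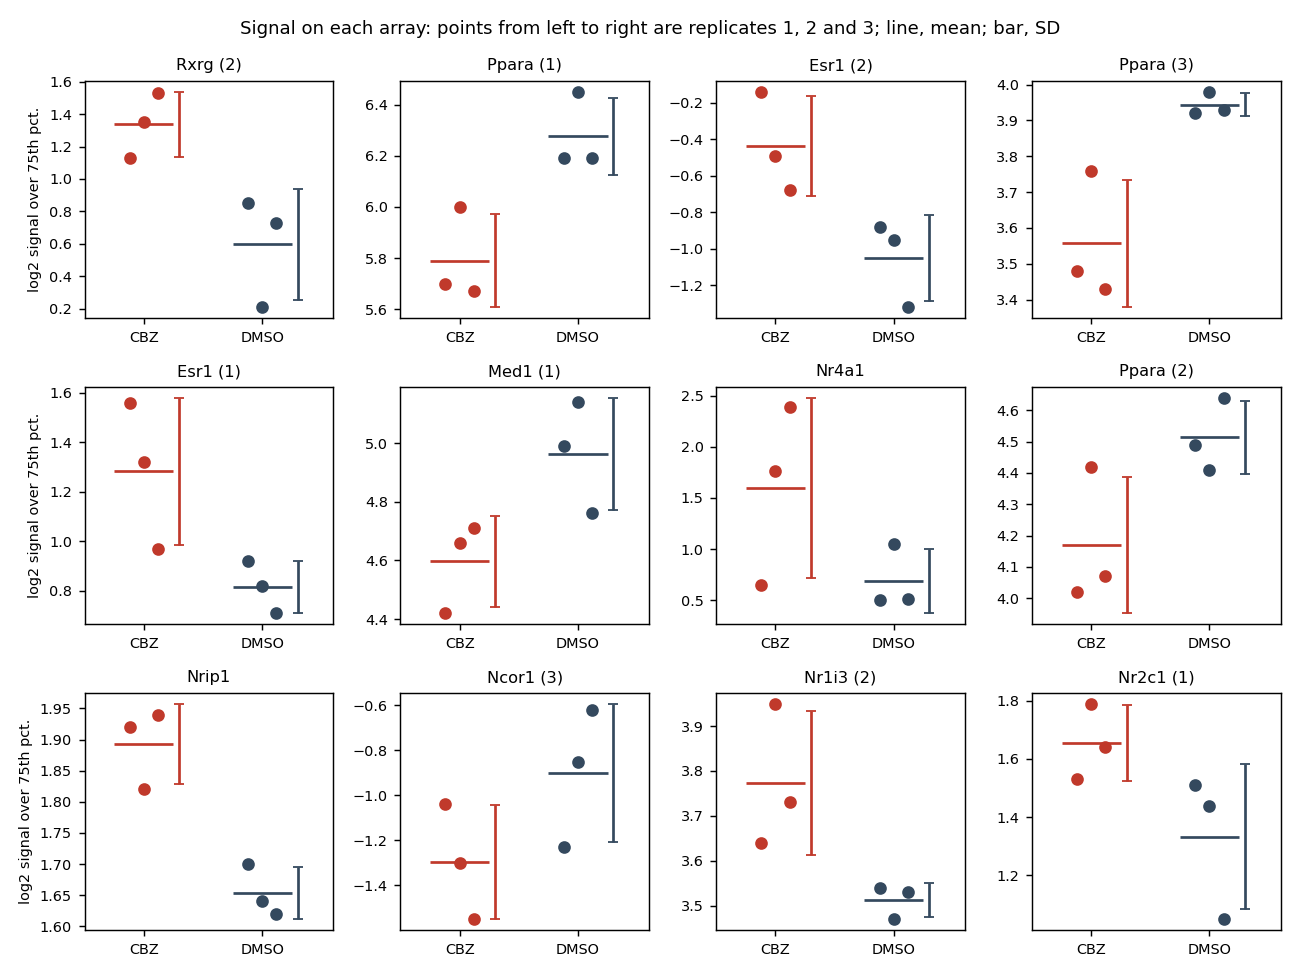
Log2 signal relative to the array's 75th percentile (y axis, scaled separately in each panel) on each array for the 12 member probes with the smallest unadjusted p, CBZ left and DMSO right, with replicates 1 to 3 from left to right, the mean as a line and the SD as a bar (n = 3 each). Ppara (1) shows CBZ mice at 5.67 to 6.0 below DMSO mice at 6.19 to 6.45, and Nr4a1 shows CBZ replicate 1 at 0.65 among the DMSO mice.

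The oxysterol receptors, which switch on cholesterol efflux and fatty acid synthesis when cholesterol derivatives accumulate, had values close to 0. Nr1h3, encoding LXR alpha, read 5.45, 5.63 and 5.42 in CBZ livers, against 5.60, 5.62 and 5.40 in DMSO livers. The groups lay on top of each other, with a log2 fold change of -0.04 (95% interval -0.34 to 0.26) at this probe and 0.00 at the other. Nr1h2, encoding LXR beta, was also at 0.00 (95% interval -0.30 to 0.30).

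The thyroid hormone receptors and Rora were lower by little at the 4 of their 6 probes that could be compared. Thra, whose receptor mediates most thyroid hormone action in heart and bone, was at -0.12. Thrb, the main thyroid hormone receptor gene of hepatocytes, was at -0.19 (95% interval -0.50 to 0.12) and -0.07 at its 2 probes. Rora, a receptor that activates clock and lipid genes, was at -0.25 (95% interval -0.58 to 0.08). In each case the groups overlapped. A second probe of Thra and one of Rora were not well above background on any array. Vdr, the vitamin D receptor gene, was not well above background on any array.

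The receptors that maintain hepatocyte identity were among the most even of the set. Hnf4a, a master regulator of hepatocyte genes, read 7.48, 7.57 and 7.48 in CBZ livers, against 7.61, 7.62 and 7.55 in DMSO livers. Both groups were tight and their ranges overlapped slightly, with a log2 fold change of -0.08 (95% interval -0.35 to 0.19). Nr5a2, which encodes LRH-1, a regulator of bile acid synthesis, was at -0.09 (95% interval -0.39 to 0.20) at its brighter probe. A dim probe of Nr5a2 was well above background on 2 arrays of each group only. Hnf4g, a relative of Hnf4a found mainly in gut and kidney, was not well above background on any array.

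The steroid receptors differed among themselves, and none passed the test. Esr1, encoding the oestrogen receptor ERα, read 1.56, 1.32 and 0.97 at its brightest probe in CBZ livers, against 0.92, 0.82 and 0.71 in DMSO livers. The CBZ mice lay above the DMSO mice, CBZ replicate 3 by a small margin, and the probe was 1.38-fold higher (0.46 ± 0.17 SE, limma's adjusted p = 0.43). The second probe read -0.14, -0.49 and -0.68 in CBZ livers and -0.88, -0.95 and -1.32 in DMSO livers. It too separated the groups and was 1.53-fold higher (0.61 ± 0.18 SE, limma's adjusted p = 0.33). The dimmest probe, which was well above background on 2 of 3 CBZ arrays and on all DMSO arrays, read -1.32, -1.85 and -2.02 in CBZ livers and -1.85, -1.47 and -1.28 in DMSO livers. The groups overlapped there, and the log2 fold change was -0.20 (95% interval -0.69 to 0.29). That probe was compared only because all DMSO arrays, the higher group, were well above background. The remaining probe was not well above background on any array. Within row 1 of the slide the 3 probes were at 0.74, 0.91 and 0.21. That contrast sets CBZ replicate 1 alone against the DMSO mice, and at the dimmest probe this mouse lay within the DMSO range. Nr3c1, the glucocorticoid receptor gene, read 4.68, 4.93 and 4.77 in CBZ livers, against 4.76, 4.71 and 4.58 in DMSO livers. The groups overlapped and the log2 fold change was 0.11 (95% interval -0.19 to 0.41), with 0.17 at its other probe. Nr3c2, the mineralocorticoid receptor gene, was at 0.17 (95% interval -0.20 to 0.54).

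Among the orphan receptors outside the Nr4a group, for which a natural ligand is unknown or disputed, Nr2c1 had the smallest p. Nr2c1 encodes TR2, a repressor that pairs with TR4, and read 1.53, 1.79 and 1.64 in CBZ livers, against 1.51, 1.44 and 1.05 in DMSO livers. CBZ replicate 1 lay just above DMSO replicate 1, so the groups barely separated. The log2 fold change was 0.32 (95% interval -0.05 to 0.68, limma's adjusted p = 0.62) and 0.18 at its other probe. Its partner gene Nr2c2 was at -0.22 and -0.28, with overlap. Nr2f6 and Nr2f2, of the COUP-TF family of repressors, were at -0.14 and 0.02. Esrra, which encodes a regulator of mitochondrial genes, was at -0.09. Nr6a1, best known from germ cells and early embryos, was well above background on 3 CBZ arrays and on 1 DMSO array and had the second widest interval of the set, at 0.37 (95% interval -0.41 to 1.15). Its probe was compared only because all CBZ arrays, the higher group, were well above background. Nr2f1 was well above background on 2 arrays of each group at 1 probe and on no array at the other, and Esrrg on no array at either probe.

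The Nr4a receptors are immediate early genes, induced within an hour or so by growth factors, cAMP and stress, and act without a classical ligand. Nr4a1 read 0.65, 1.76 and 2.39 in CBZ livers, against 0.50, 1.05 and 0.51 in DMSO livers. CBZ replicates 2 and 3 were above every DMSO mouse, while CBZ replicate 1 lay among them. The log2 fold change was 0.92 ± 0.38 SE, 1.89-fold higher (limma's adjusted p = 0.50), and the SD was 0.88 in CBZ mice and 0.31 in DMSO mice. Those high mice were the CBZ mice of row 2. With the row as a covariate the log2 fold change was -0.03, and without CBZ replicate 1 it was 1.39 (limma's adjusted p = 0.10). Row 2 held CBZ mice only, so row and mouse cannot be told apart, for Nr4a1 or for any other probe. Nr4a3 was not well above background on any array, and Nr4a2 on 1 CBZ array and on no DMSO array. So 6 genes had no probe that could be compared: Nr2f1, Nr4a2, Nr4a3, Hnf4g, Vdr and Esrrg.

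**Figure D3:**
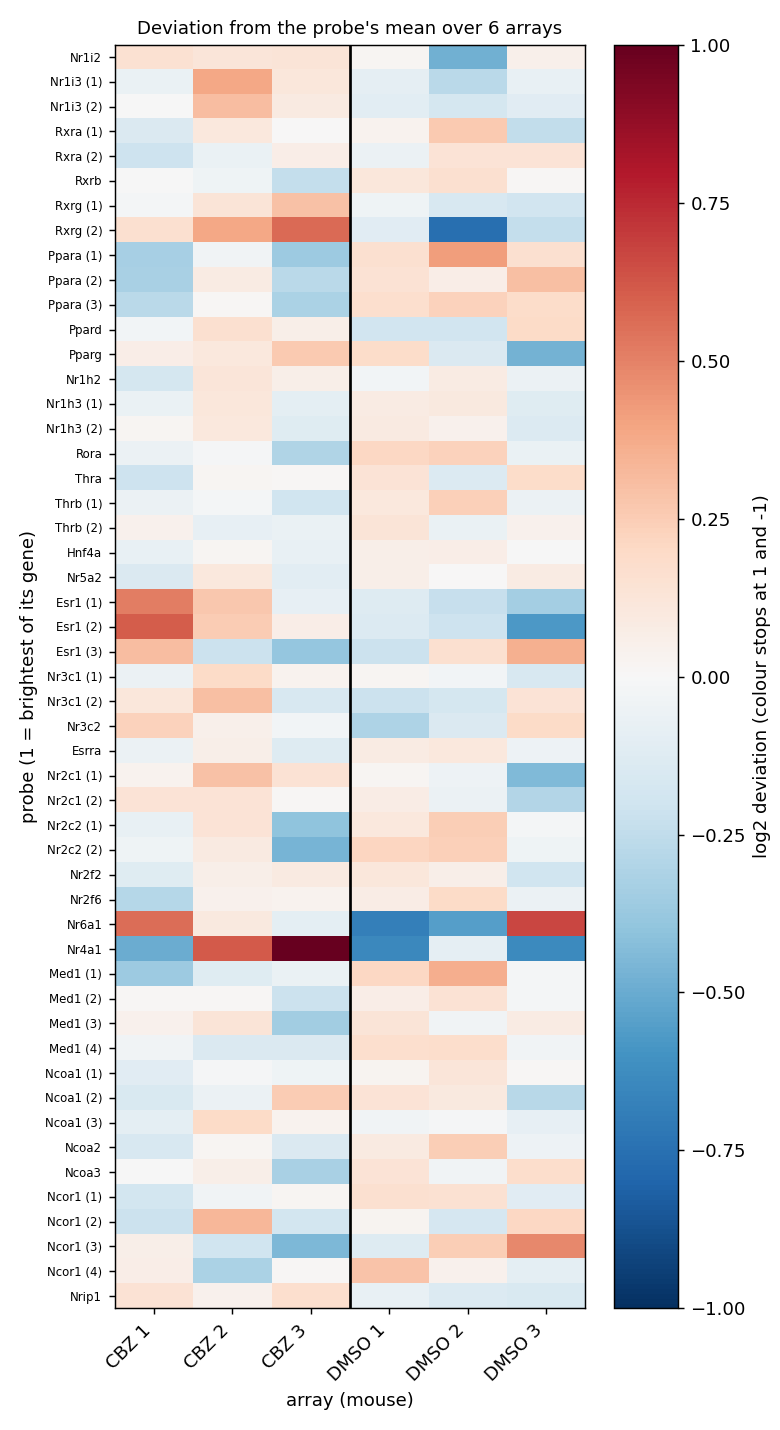
Deviation of each array (columns, CBZ left of the line and DMSO right) from the probe's mean over the 6 arrays (rows, the 51 probes compared, in the order of the plot of fold changes), as log2 in colour, red above and blue below the mean. Nr4a1 is high in CBZ replicates 2 and 3 and the Ppara rows are bluest in CBZ replicates 1 and 3.

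Coactivators were slightly lower at 7 of 9 probes, where 51.4% of all probes compared were lower. The 9 probes read only 4 genes, and 4 of them read Med1, so they are not separate observations. Ncoa1, the steroid receptor coactivator SRC-1, read 2.45, 2.55 and 2.52 in CBZ livers, against 2.59, 2.68 and 2.57 in DMSO livers. The groups did not overlap but lay close together, at -0.11 (95% interval -0.38 to 0.16), and the other 2 probes of Ncoa1 were at 0.04 and 0.08. Ncoa2 and Ncoa3, the other members of that family, were each at -0.19 with overlap, and a dim second probe of Ncoa3 was not compared. Med1, the Mediator subunit that docks ligand-bound receptors to the transcription machinery, was lower at all 4 probes. Its brightest probe read 4.42, 4.66 and 4.71 in CBZ livers, against 4.99, 5.14 and 4.76 in DMSO livers. DMSO replicate 3 lay just above the CBZ mice, and the log2 fold change was -0.37 (95% interval -0.71 to -0.02, limma's adjusted p = 0.49). The other 3 probes of Med1 were at -0.13, -0.11 and -0.21.

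The 2 corepressor genes lay on different sides of 0. Ncor1, the scaffold that brings histone deacetylase to unliganded receptors, read 2.60, 2.75 and 2.81 in CBZ livers, against 2.95, 2.94 and 2.67 in DMSO livers. The groups overlapped, at -0.13 (95% interval -0.45 to 0.18). Its probe with the smallest p read -1.04, -1.30 and -1.55 in CBZ livers and -1.23, -0.85 and -0.62 in DMSO livers. The groups overlapped there too, since DMSO replicate 1 lay below CBZ replicate 1, at -0.39 (95% interval -0.84 to 0.05, limma's adjusted p = 0.61). The other 2 Ncor1 probes were at -0.04 and -0.16. Nrip1, encoding RIP140, a corepressor of ligand-bound receptors in metabolic tissues, read 1.92, 1.82 and 1.94 in CBZ livers, against 1.70, 1.64 and 1.62 in DMSO livers. The CBZ mice were close together and all above the DMSO mice, though the log2 fold change was only 0.24 (95% interval -0.03 to 0.51, limma's adjusted p = 0.61). A second Nrip1 probe was not well above background on any array.

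The probes of a gene mostly agreed in direction. Of the 13 genes with more than 1 probe compared, 10 had all probes on 1 side of 0, and the exceptions were Ncoa1, Nr1h3 and, through its dimmest probe, Esr1. The median difference between the highest and lowest probe of a gene was 0.14 on the log2 scale. The spread between mice of the same group was also small, with a median SD of 0.163 over the 51 probes, against 0.188 over all probes compared. Scaling to the array median shifted the median of all probes to -0.106, and 4 of the 51 probes then had the opposite sign, but relative to that shift none did.

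Genes downstream of the receptors were read at the brightest probe of each gene, without members of the set. All gene lists were chosen with earlier results of these data known, so their counts are not independent of those results. Over all 17047 genes 49.1% were higher, the median log2 fold change was -0.004, and 0.0528% passed limma's adjusted test. At an unadjusted p under 0.05 in limma 852 genes were higher and 676 lower, 8.96% in all, which is the background for the counts at that level given for each list. Of 33 measured targets of CAR and PXR 25 were higher and the median was 0.172. At that unadjusted level 9 were higher and none lower, and 2 rose past the adjusted threshold. Those were Gadd45b, a stress-inducible gene at 7.73-fold higher (limma's adjusted p = 0.0056), and Cyp2c55, a cytochrome P450, at 2.91-fold higher (limma's adjusted p = 0.033). Under the 15 alternatives Gadd45b passed in 12 (limma's adjusted p up to 0.31) and was lost with no filter, without CBZ replicate 2 and without DMSO replicate 3. Cyp2c55 passed in 7 (limma's adjusted p up to 0.53) and was lost when any mouse other than CBZ replicate 1 was left out, though both stayed higher throughout. Median scaling and the authors' table are nearly the same analysis, yet each was counted separately, and both genes passed under each. Cyp2b10, the classical CAR target, read 8.99, 8.93 and 7.64 in CBZ livers, against 6.34, 4.83 and 5.70 in DMSO livers. The groups lay far apart at 7.44-fold, and the adjusted p in limma was 0.066. Its neighbour Cyp2b9 was at 2.43 (limma's adjusted p = 0.065), and these 2 are close paralogs whose probes can share signal. Cyp3a11, the standard PXR target, was at 0.10 ± 0.12 SE. Nr1i3 was at 0.29 in the same livers.

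Targets of PPAR alpha lay on both sides of 0. Of 35 measured, 22 were higher and 13 lower, the median was 0.092, and none passed, while at an unadjusted p under 0.05 in limma 5 were higher and 1 lower. Cidec, a lipid droplet gene, was at 0.71, Ucp2, a mitochondrial carrier gene, at 0.47, and Cyp4a14, a fatty acid hydroxylase gene, at 1.05 (limma's adjusted p = 0.30, 0.34 and 0.38). Cyp4a14 read 6.77, 6.32 and 6.81 in CBZ livers and 5.52, 4.82 and 6.41 in DMSO livers, where DMSO replicate 3 lay within the CBZ range.

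The LXR, thyroid hormone, HNF4 alpha and glucocorticoid receptor targets held no gene past the adjusted threshold. Among 18 LXR targets 13 were higher, with a median of 0.095 and 6 at an unadjusted p under 0.05 in limma, all higher. Examples were Fasn, the fatty acid synthase gene, at 1.05, Rgs16, a regulator of G protein signalling, at 1.5, and Srebf1, the gene of the lipogenic factor SREBP-1, at 0.50 (limma's adjusted p = 0.32, 0.37 and 0.37). The 5 lower LXR targets were the transporter genes Abcg5 (-0.27), Abcg8 (-0.37), Abcg1 (-0.22) and Abca1 (-0.03), and Smpdl3a (-0.03). Of 14 thyroid hormone targets 10 were higher, with a median of 0.176 and 4 at that unadjusted level. The leading ones were G6pc, the glucose-6-phosphatase gene, at 0.77, Igfbp1, a secreted binding protein gene, at 0.77, and Cyp7a1, the rate-limiting enzyme gene of bile acid synthesis, at 0.78 (limma's adjusted p = 0.15, 0.16 and 0.44). Of 27 HNF4 alpha targets 11 were higher and 16 lower, with a median of -0.006, 2 higher and 1 lower at that level. G6pc, Alas1, a haem synthesis enzyme gene, at 1.00, and Nat8, an acetyltransferase gene, at -0.76 had the smallest p (limma's adjusted p = 0.17 for Alas1 and 0.39 for Nat8). Of 23 glucocorticoid receptor targets 10 were higher and 13 lower, with a median of -0.005 and 5 at that level, all higher. Beside Igfbp1 these were led by Ddit4, an inhibitor gene of mTORC1 signalling, at 1.58 and Cebpb, a transcription factor gene, at 0.50 (limma's adjusted p = 0.30 for each). The lists share genes, so their counts are not separate observations. G6pc and Igfbp1 were counted among thyroid hormone targets and again among HNF4 alpha and glucocorticoid receptor targets, respectively. Cyp7a1 was counted among LXR and thyroid hormone targets, and Alas1 also among CAR and PXR targets.

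Immediate early genes other than the Nr4a genes lay on both sides of 0. Of 18 measured, 12 were higher and 6 lower, with a median of 0.363. At an unadjusted p under 0.05 in limma 7 were higher and 3 lower, a level that 8.96% of all genes reached. Myc, a growth-promoting transcription factor gene, rose 3.12-fold (limma's adjusted p = 0.030). It stayed higher under all 15 alternatives but passed in 7 (limma's adjusted p up to 0.51), and the call was lost when any mouse other than CBZ replicate 1 was left out. Those 7 count both median scaling and the authors' table, which are nearly the same analysis. Egr1, a zinc finger gene induced by growth signals, read -0.16, -0.84 and 0.31 in CBZ livers, against 1.42, 1.56 and 0.98 in DMSO livers. The groups did not overlap, at -1.55 (limma's adjusted p = 0.13), a direction opposite to that of Nr4a1. Fosl2, of the AP-1 family, was at 0.80 (limma's adjusted p = 0.17).

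**Figure D4:**
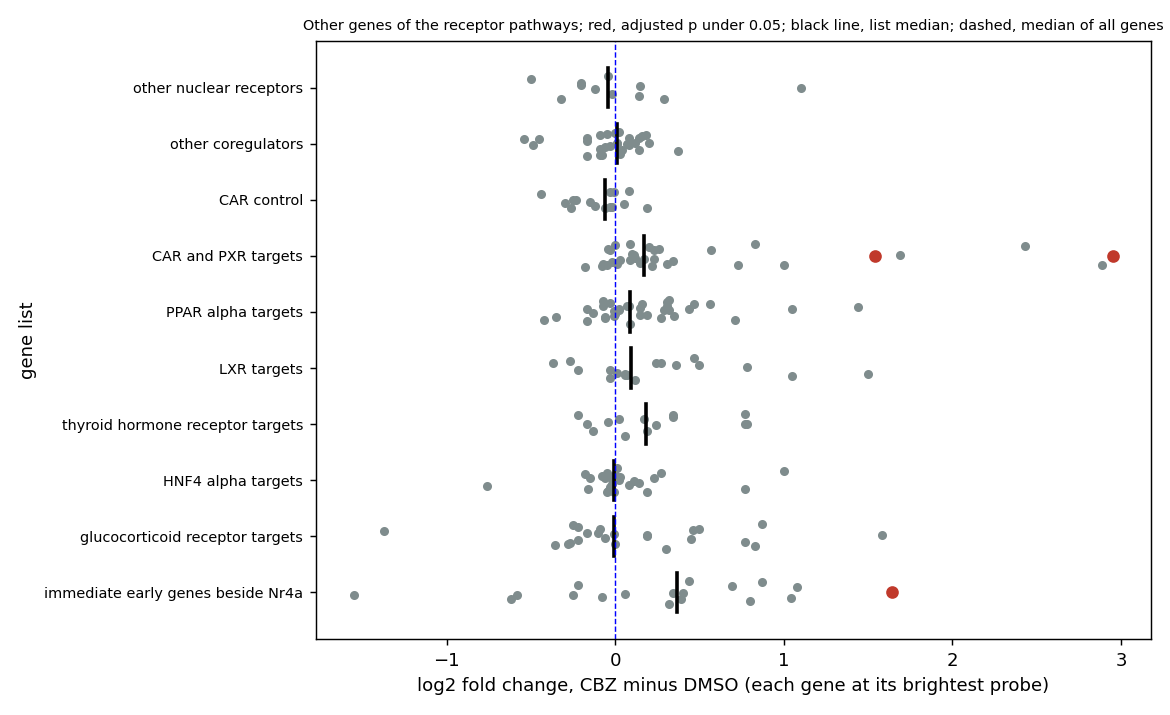
Log2 fold change of CBZ minus DMSO (x axis) for each measured gene of 10 lists (y axis), with the list's median as a black line, the median of all genes as a dashed line and genes with an adjusted p under 0.05 in red. The red points are Gadd45b and Cyp2c55 among CAR and PXR targets and Myc among immediate early genes.

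Receptors and coregulators outside the set gave 1 value near the threshold. Of 11 other nuclear receptor genes measured, 4 were higher and 7 lower, with a median of -0.038. At an unadjusted p under 0.05 in limma 2 were higher and none lower, a level that 8.96% of all genes reached. Rarb, a retinoic acid receptor gene, read 0.97, 0.92 and 0.76 in CBZ livers, against -0.01, -0.30 and -0.35 in DMSO livers. The groups were well apart at 2.15-fold, and limma's adjusted p was 0.052. Nr1h4, the bile acid receptor FXR gene, was at 0.29 and the clock repressor gene Nr1d1 at -0.50 (limma's adjusted p = 0.51 and 0.54). Of 29 other coregulators 15 were higher and 14 lower, with a median of 0.009, and at that unadjusted level 2 were lower and none higher. Sirt1, a deacetylase gene, was at -0.49, Lcor, a ligand-dependent corepressor gene, at -0.54, and Crebbp, a histone acetyltransferase gene, at 0.37 (limma's adjusted p = 0.30, 0.31 and 0.70). Of the 15 genes of the chaperone, kinase and EGF receptor route that controls CAR 12 were lower and none reached an unadjusted p under 0.05 in limma, with a median of -0.061. Foxo1, an insulin-regulated factor, was at -0.30, Prkaa1, a subunit gene of AMP kinase, at -0.26, and Stk11, the gene of the kinase LKB1, at -0.15 (limma's adjusted p = 0.59, 0.63 and 0.86).

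Markers of other liver cells were read beside these values. No marker passed the test. The mean of 9 stellate cell and fibroblast markers was 1.19 to 1.68 in CBZ livers and 1.11 to 1.27 in DMSO livers, with 8 of 9 higher. The mean of 10 Kupffer cell and macrophage markers was 3.37 to 3.63 in CBZ livers and 2.92 to 4.06 in DMSO livers, with 8 of 10 higher. Endothelial markers averaged 2.16 to 2.55 in CBZ livers and 2.00 to 2.47 in DMSO livers, with 6 of 8 higher. Lymphocyte and neutrophil markers averaged 0.30 to 0.49 in CBZ livers and -0.11 to 0.47 in DMSO livers, with 8 of 10 higher. Of the cholangiocyte markers only 3 of 6 were measured, with means of -0.55 to -0.09 in CBZ livers and -0.78 to -0.19 in DMSO livers, and Epcam, Sox9 and Cftr were too dim to compare. Their part in the values of Pparg, Esr1, Rxrg and the other members was not tested.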

How the data were processed

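Whole-liver RNA of 6 mice was analysed, 3 per group, with groups and replicate numbers from the labels. Per the file headers, the authors extracted each scan with Agilent Feature Extraction 10.7.3.1. The deposited scanner files give spot intensity on a linear scale, already background-subtracted and detrended in the processed column. The deposited value table holds a ratio, each spot's processed intensity over its array's median, as division of the scanner values shows.

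Control and outlier spots (114 to 126 per array) were left out, log2 processed intensity was scaled to the 75th percentile over non-control spots, and spots of a probe were averaged. Probes that every array of either group read well above background were compared, and 23 probes with no usable spot on some array were dropped. Groups were fitted without covariates by lmFit and eBayes of limma 3.58.1 under R 4.3.3, with two-sided p-values on 8.62 degrees of freedom, with Benjamini-Hochberg adjustment over 22352 probes and a threshold of 0.05, checked on simulated data. Genes of the lists were named through RefSeq accessions or symbols (GRCm38.p6, names only). Coordinates are the array design's, on mm9.

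The members and gene lists were chosen with earlier results of these data known. Values on every array were given for the 12 member probes with the smallest unadjusted p, for 9 members in any case (Nr1i2, Nr1i3, Rxra, Ppara, Hnf4a, Nr1h3, Nr3c1, Ncoa1 and Ncor1) and for the probes of Rxrg and Esr1 set beside them, added after their values were seen. From each list the 3 genes with the smallest p were named, with Cyp2b10, Cyp3a11 and Cyp4a14. The lower LXR targets were named after their values were seen. Arrays were also printed for Egr1, Rarb, Cyp2b10 and Cyp4a14. Alternatives were normexp background correction (offset 50), quantile and median scaling, 2 other filters, an intensity trend with robust variance, the authors' table, a replicate block, the slide row, an adjusted p under 0.10, and leaving out each mouse.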

Additional observations from a re-analysis of the deposited data

How the results depend on the processing

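No member probe was called higher or lower in limma under any of the alternatives except the intensity trend with robust variance, where 1 was called higher (Rxrg, adjusted p = 0.048). The counts over all probes, 12 higher and 2 lower in the report, depended on the setting. They were 76 and 54 with normexp, 60 and 71 with median scaling and again with the authors' table, 31 and 12 with the filter on all 6 arrays, 83 and 91 with the intensity trend, and 37 and 21 at an adjusted p under 0.10. They were 5 higher with quantile normalisation, 4 higher with the slide row, and 0 and 0 with no filter, where an unadjusted p under 0.05 in limma was reached by 1705 higher and 908 lower. The moderated test under median scaling had 89400 degrees of freedom, so its p-values rest on a variance common to all probes. Leaving out single mice gave 0 to 22 higher and 0 to 8 lower. That was 22 and 8 without CBZ replicate 1, and 0 and 0 without CBZ replicate 2 (1132 and 1046 at an unadjusted p under 0.05 in limma). Without CBZ replicate 3 it was 1 and 0 (759 and 703 by that unadjusted p in limma). Among DMSO mice it was 3 and 1 without replicate 1, 3 and 2 without replicate 2, and 0 and 0 without replicate 3 (1414 and 1416 by the unadjusted p in limma). The cause was not tested.

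With the slide row 7 of the 51 member probes changed sign: Nr4a1 (-0.03), Nr3c1 (-0.01), the dimmest Esr1 probe (0.21 in place of -0.20), 2 Ncoa1 probes (-0.13 and -0.06), Nr2f2 (-0.11) and a Thrb probe (near 0). Rxra ran from -0.16 to 0.09 as mice were left out and had 0.04 without CBZ replicate 1. For Nr1h3 leaving out mice gave -0.11 to 0.0012. With the replicate number as a block 9 probes were called higher and 1 lower. Deviations from the group mean correlated at -0.24, 0.02 and 0.18 between same-numbered mice. The highest value was that of CBZ replicate 2 with DMSO replicate 1 (0.38). With 3 arrays per group, each centred on its own mean, these values cannot decide whether the numbers pair the mice. Dim probes are limited by signal over background, since 11 of the 66 member probes were well above it on no array.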

Other observations

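Promoter sequence was searched for motifs that nuclear receptors and early response factors bind, in windows of 300 bases around the gene start from RefSeq (GRCm38.p6). An entry existed for 32 of the 37 genes, with 49 promoters in all, and Nr3c1, Hnf4g, Thra, Ncoa2 and Ncoa3 had none. The receptor half-site AGGTCA, on either strand, was found in 7 of the 49 promoters (14.3%) against 16.3% of all 32851 promoters, and the genes were Nr5a2, Nr6a1, Pparg, Rxra, Rxrg and Thrb. Its extended form AAAGGTCA, which contains the half-site, was found in 2 (4.1%, Rxra and Rxrg) against 1.51%. The cAMP response element TGACGTCA was in 1 promoter, that of Nr6a1, against 1.79% of all promoters, and the E-box CACGTG in 2 (4.1%, Nr1i3 and Thrb) against 7.15%. A match is a string of letters, and no binding was measured.

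The level of the member probes differed between mice of the same group. In CBZ replicate 2, 37 of the 51 probes lay above their own mean over the 6 arrays, against 18 in CBZ replicate 1 and 23 in CBZ replicate 3, and against 34, 28 and 19 in DMSO replicates 1, 2 and 3. The median deviation was -0.060, 0.076 and -0.065 in CBZ replicates 1, 2 and 3, and 0.065, 0.047 and -0.052 in DMSO replicates 1, 2 and 3. CBZ replicate 2 and DMSO replicate 1 also had the lowest median intensity among their groups, at 27.5 and 31.0 units. These counts and deviations were taken over member probes only. Whether all probes on an array shifted alike was not tested.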
